A study of Bos taurus with 6 samples.

Results

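In 2 independent lines of bovine embryonic stem cells, named A and B, 184 places on chromosomes 1 to 29 carried a weak H3K27me3 summit in both lines that stood alone and had no H3K4me3 nearby. H3K27me3 and H3K4me3 are trimethylation of histone H3 at lysine 27 and at lysine 4. The sites were chosen by measured values: an H3K27me3 summit of line A with one of line B within 1 kb, a peak score below 20 in both lines, no other H3K27me3 summit of the same list within 5 kb of either, and no H3K4me3 summit of either line within 10 kb. They made up 1.04% of 17664 autosomal H3K27me3 summits for line A (95% Wilson interval from 0.902% to 1.20%) and 1.41% of 13083 for line B (1.22% to 1.62%). Being weak, alone and without H3K4me3 is therefore how they were found, and the values that bear on these properties are given as a description with no test.

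The lines were derived from blastocysts, kept on mouse feeder cells with human FGF2 and the WNT inhibitor IWR1, freed of feeders with magnetic beads and taken at passage 12. The labels give the same culture and passage for both lines and name no genotype, and the groups were the 2 lines and the 2 marks. Each mark had 1 ChIP-seq library per line (n = 2 lines), so no spread within a line could be measured and every difference between lines compares single libraries. For H3K27me3 the list of line A holds 25225 summits and that of line B 20684, and for H3K4me3 20908 and 21840. Each summit has a peak score, the −log10 of its p-value or q-value. They hold no read counts, so the depth is unknown, and the 2 input libraries were not analysed here.

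H3K27me3 is written by Polycomb repressive complex 2, whose catalytic subunit is EZH2 or EZH1, and is read by forms of Polycomb repressive complex 1. In pluripotent cells it is best known from CpG-rich promoters of developmental regulators, often in broad domains and often together with H3K4me3, a combination called bivalent. H3K4me3 marks active and poised promoters. A lone, weak H3K27me3 summit far from any H3K4me3 is thus a form of the mark away from its best known setting. Genes and sequences at the sites were not analysed here, since no sequence or annotation of the UMD3.1 assembly, in which the positions are given, was used.

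The absence of H3K4me3 removed more of the weak solitary sites than it kept. From 17664 autosomal H3K27me3 summits for line A, 11653 matched one in line B at up to 1 kb, 5125 of these scored below 20 in both lines, and 1072 of these had no other summit of their list within 5 kb. H3K4me3 lay within 1 kb of 810 of the 1072 (75.6%, Wilson interval 72.9% to 78.0%) and between 1 and 10 kb from 78. The 184 sites were the 17.2% that remained (15% to 19.5%). A search that started from line B returned the same 184 sites. The rule treats both summits of a pair alike, so this outcome was fixed in advance.

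At the limits of the rule the neighbours were close. The widest pair of summits inside it lay 971 bases apart, on chromosome 8 at 104416351 in line A, and the nearest outside it 1059 bases apart, on chromosome 2 at 70135. The highest score inside was 19.96, in line A on chromosome 7 at 53949047, and the lowest outside 20.47, in line B on chromosome 10 at 95269121. The smallest distance to another summit of the same list was 5027 bases inside, on chromosome 18 at 52898822, and the largest outside was 4723 bases, on chromosome 14 at 1100880. The smallest distance to H3K4me3 was 10131 bases inside, on chromosome 21 at 2434091, and the largest outside 9890 bases, on chromosome 21 at 70108284.

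The scores of the sites lay low in the lists of both lines, which the limit of 20 set in advance. In line A they ran from 2.10 to 19.96 with a median of 7.21 and quartiles of 4.70 and 10.2. In line B they ran from 2.01 to 19.6 with a median of 5.61 and quartiles of 3.95 and 8.84. The mean of these medians was 6.41 ± 1.13 (SD, n = 2 lines). The autosomal lists as a whole, which have no such limit, had medians of 11.4 and 13.2. Under the same limit, weak solitary shared sites with H3K4me3 within 10 kb had medians of 9.24 and 7.28. Weak shared sites without H3K4me3 that had another summit within 5 kb had 7.41 and 6.79. The median site had a higher score than 36.7% of the autosomal summits of line A and than 22.0% of those of line B. Most sites were far under the limit of 20: 134 of 184 scored below 10 in line A, 150 did in line B, and 116 did so in both. In both lines together, 31 sites scored below 5 and 16 scored 10 or more.

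The scores of the sites in lines A and B were loosely related. Across the 184 sites Pearson's r was 0.35 and Spearman's rho 0.33, as a description, since the sites of a line share its library and its depth and the rule bounds both scores. On the log2 scale r was 0.31. It was 0.40 for 888 weak solitary shared sites with H3K4me3 within 10 kb and 0.39 for 859 weak shared sites with another summit within 5 kb, which have the same limit of 20. Sites over that limit span a wider range of scores, and shared solitary sites at 20 or more in both lines had r = 0.88. The score was higher in line A at 110 sites (59.8%), with a median ratio of line A to line B of 1.15 and quartiles of 0.79 and 1.83. It was within 1.5 times between the lines at 91 sites, over 2 times higher in line A at 40 and over 2 times higher in line B at 17. Scores of different libraries move with depth, so these ratios do not measure a difference in the mark. Some scores recurred exactly: 51 sites of line A and 48 of line B shared their score with another site, and 6 sites scored 4.798 in line A.

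**Figure D1:**
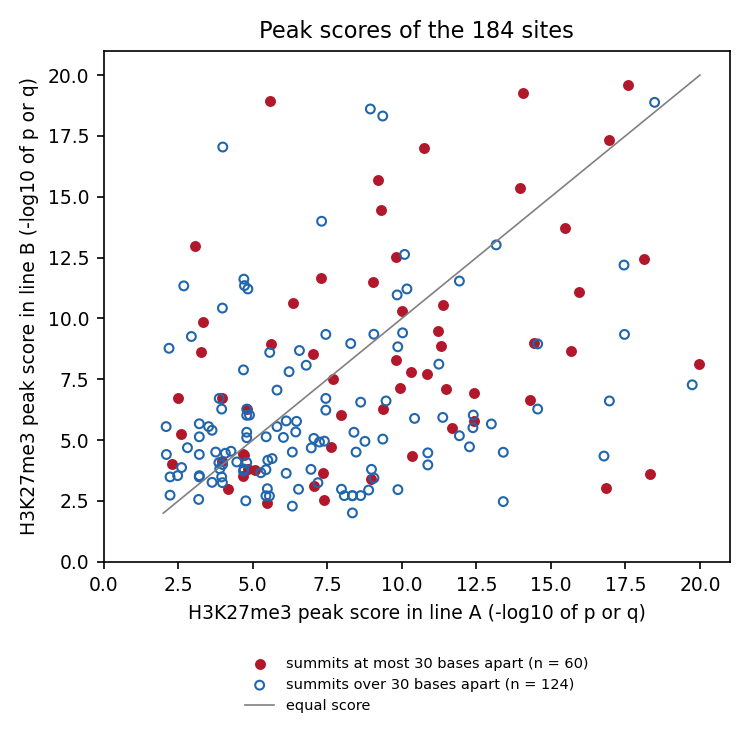
H3K27me3 peak score of each of the 184 sites in line A (x axis) and line B (y axis), both on the −log10 scale. Filled points are the 60 sites whose summits lay at most 30 bases apart between lines, open points the other 124, and the grey line marks equal scores. Most points crowd below 10 in both lines, with wide scatter around the line.

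The 5 sites with the highest lower score of the lines were among the few that both libraries placed near the limit. On chromosome 6 at 19480503 the score was 18.5 for line A and 18.9 for line B. On chromosome 10 at 104033021 it was 17.6 and 19.6, with both summits on the same base. On chromosome 2 at 136904231 it was 17.0 and 17.3, and on chromosome 1 at 46187601 it was 14.1 and 19.3. The last of these sites lay at base 421 of chromosome 14 in line A and base 401 in line B, at the very start of the assembled chromosome, with scores of 14.0 and 15.3. At the 3 sites with the lowest lower score, a summit barely entered a list. The site of chromosome 8 at 104416351 scored 8.34 in line A and 2.01 in line B, that of chromosome 14 at 32343798 scored 2.10 and 5.56, and that of chromosome 6 at 110138035 scored 2.10 and 4.41.

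The 5 sites most unequal in favour of line A differed 3.86 to 5.58 times. They were on chromosome 4 at 83258125 (scores of 16.8 for line A and 3.02 for line B), on chromosome 14 at 5022966 (13.4 and 2.47) and at 72860585 (18.3 and 3.61), on chromosome 8 at 104416351 as given above, and on chromosome 16 at 39474212 (16.8 and 4.35). In 3 of these 5 the summits were nonetheless within 37 bases of each other. In favour of line B the most unequal were on chromosome 19 at 44446073 (4.00 and 17.0), on chromosome 5 at 78142207 (2.69 and 11.3) and on chromosome 12 at 78963941 (3.08 and 13.0). Their ratios of line A to line B were 0.234, 0.237 and 0.237.

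The lines placed the summits of these sites about as close together as those of all shared autosomal sites. The median distance was 74 bases, with quartiles of 23 and 176. It was at most 30 bases at 60 sites (32.6%, Wilson interval 26.3% to 39.7%), at most 100 at 108 (58.7%) and at most 500 at 173 (94.0%). Over all 11653 shared autosomal H3K27me3 sites, whose median scores were 22.6 and 17.7, the median was 67 bases, with 39.3% within 30 bases and 56.2% within 100. The summit of line B lay at the higher coordinate at 86 sites and at the lower at 96, and the median signed shift was -2.50 bases, so the lists were not offset against each other. Both summits fell on the same base at 2 sites, on chromosome 10 at 104033021 and on chromosome 27 at 5960613. They were 1 base apart on chromosome 9 at 104192506, on chromosome 15 at 17052575 and on chromosome 18 at 755304.

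Sites placed within 30 bases also scored higher and stood farther from other H3K27me3 than sites placed less exactly. The 60 sites within 30 bases had median scores of 9.26 for line A and 7.61 for line B, and a median of 96.8 kb to the nearest other H3K27me3 summit of either line. The 36 sites over 250 bases apart had medians of 5.55, 4.68 and 31.4 kb. Between these, the medians were 7.43, 5.26 and 37.2 kb for 48 sites at 31 to 100 bases. For 40 sites at 101 to 250 bases they were 6.08, 5.32 and 36.1 kb. Beyond 30 bases the line B score and the distance to other H3K27me3 thus changed little. Of the 16 sites that scored 10 or more in both lines, 10 were among the 60 and none among the 36. The distance to H3K4me3 moved less, at 88.8 kb for the 60 and 74.7 kb for the 36. How score, distance and placement depend on each other was not tested.

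The 184 sites can be set beside shared autosomal sites that break the rule in a single clause, with no test, since each line has 1 library per mark. The 888 weak solitary sites with H3K4me3 within 10 kb had a median distance between lines of 162.5 bases, and 12.5% of them (10.5% to 14.8%) lay within 30 bases, against 32.6% of the 184. Their scores were somewhat higher, with medians of 9.24 and 7.28. The 859 weak sites without H3K4me3 that had another summit within 5 kb had a median distance of 127 bases, with 23.9% (21.1% to 26.8%) within 30 bases. The 173 solitary sites without H3K4me3 that scored 20 or more in both lines had median scores of 161 and 171 and a median distance of 8 bases, with 79.2% (72.5% to 84.6%) within 30 bases. Only 26 sites scored on different sides of 20 in the lines. Among the autosomal sites that were solitary, shared and without H3K4me3, 184 were thus below 20 in both lines and 173 at or above it.

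Isolation varied over more than 2 orders of size. The nearest other H3K27me3 summit of either line lay at a median of 46.4 kb, with quartiles of 15.3 and 148.9 kb and a range of 4.94 to 2077 kb. It can fall under 5 kb because the rule looked in the same list only. For H3K4me3 the median was 77.6 kb, with quartiles of 26.9 and 188 kb and a range of 10.1 to 1086 kb. The 173 shared sites under the same distance limits that scored 20 or more in both lines stood farther away. Their medians were 165.4 kb to other H3K27me3 and 123.4 kb to H3K4me3. Another H3K27me3 summit lay within 50 kb of 96 sites (52.2%) and within 500 kb of 168 (91.3%). H3K4me3 lay within 50 kb of 74 sites (40.2%) and within 500 kb of 170 (92.4%). At 104 of the 184 the other H3K27me3 summit was nearer than the H3K4me3 summit. The distances to the marks are not on equal terms, since the rule bars H3K4me3 to 10 kb but other H3K27me3 to 5 kb only. The 35 sites with another H3K27me3 summit within 10 kb are thus among the 104 by construction. With no other H3K27me3 summit allowed within 10 kb, the medians were 75.5 kb to other H3K27me3 and 76.4 kb to H3K4me3. Both were over 100 kb away at 39 sites, and over 500 kb away at 5.

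**Figure D2:**
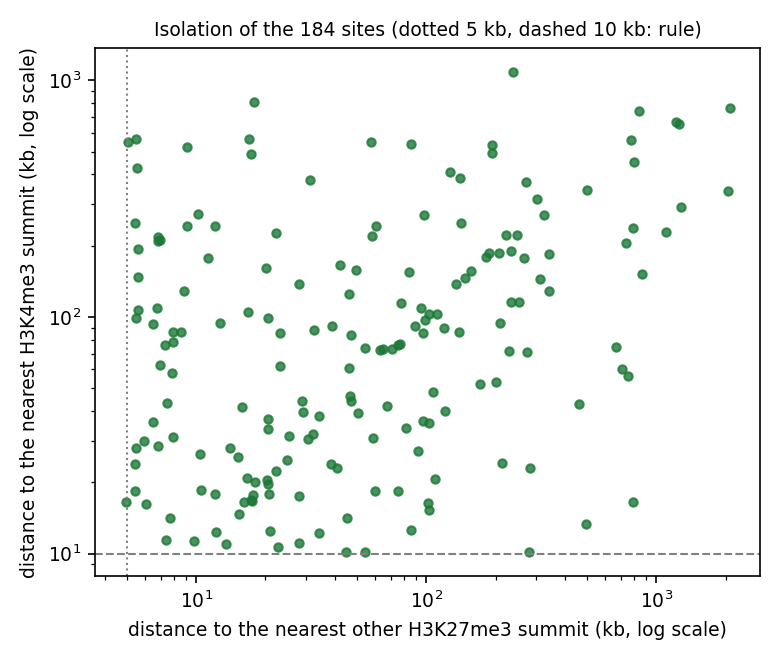
Each point is 1 of the 184 sites, placed by its distance to the nearest other H3K27me3 summit of either line (x axis, kb, log scale) and to the nearest H3K4me3 summit of either line (y axis, kb, log scale). The dotted and dashed lines mark the 5 kb and 10 kb of the rule. The points spread from these limits to 2077 kb and 1086 kb, and 5 sites lie beyond 500 kb on both axes.

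The site farthest from other H3K27me3 was on chromosome 9, with its summits at 58383825 (line A) and 58383751 (line B) and scores of 3.21 and 5.14. Its nearest other H3K27me3 summit was 2077 kb away and its nearest H3K4me3 summit 760 kb. Its neighbour on the same chromosome at 56306784 (scores 7.02 and 8.52) was 1218 kb from other H3K27me3 and 667 kb from H3K4me3. The other 3 of the 5 farthest from H3K27me3 were on chromosome 14 at 54219574 (2049 kb, scores 7.68 and 7.53), chromosome 15 at 50153334 (1272 kb, scores 14.6 and 6.28) and chromosome 12 at 2787341 (1248 kb, scores 3.21 and 3.54). These summits recurred within 18 to 172 bases in the other line, with no other summit of the mark in either list for over 1 Mb around.

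The greatest distance to H3K4me3 was 1086 kb, on chromosome 15 at 12901361, where the H3K27me3 scores were 5.44 and 2.71. It was followed by chromosome 21 at 1592022 (811 kb, scores 4.18 and 2.98), the site of chromosome 9 at 58383825 given above, and chromosome 24 at 11971419 (744 kb, scores 4.80 and 6.28), the only site of that chromosome. The site of chromosome 21 differed from the others in its setting: between 10 and 500 kb from it lay 100 H3K27me3 summits of line A and 75 of line B.

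The nearest other H3K27me3 summit of the same line was itself mostly weak. In line A it had a median score of 6.36, and scored 20 or more at 25 of the 184 sites (13.6%, Wilson interval 9.38% to 19.3%), against 37.8% of the autosomal list. In line B the median was 7.48, with 31 at 20 or more (16.8%, 12.1% to 22.9%), against 40.1%. It was shared by the lines at 83 sites (45.1%) seen from line A and at 138 (75%) seen from line B, against 66.0% and 83.6% of the lists. H3K4me3 lay within 1 kb of this neighbour at 48 sites seen from line A (26.1%, against 31.1% of the list) and at 68 seen from line B (37.0%, against 34.0%). At 17 of the 184 sites the nearest other H3K27me3 summit was itself one of the 184. Such a neighbour is weak, shared and without H3K4me3 by the rule. The differences from the lists were not tested.

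The nearest H3K4me3 summit of each line resembled the H3K4me3 lists more closely. Its median score was 29.7 for line A and 47.4 for line B, where the autosomal lists had 38.6 and 59.2, and it was shared by the lines at 94.0% and 84.8% of sites, against 93.7% and 88.6%. It had H3K27me3 within 1 kb at 55 sites in line A (29.9%, where the list had 24.2%) and at 40 in line B (21.7%, where the list had 19.8%). At 150 of the 184 sites the distance to H3K4me3 differed by at most 1 kb between the lines.

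In their wider surroundings the sites stood between weak solitary sites with H3K4me3 and shared sites as a whole in the number of H3K27me3 summits. Between 10 and 500 kb from a site lay a median of 7.5 and 8 H3K4me3 summits of lines A and B and of 11.5 and 8 H3K27me3 summits. For the 888 sites with H3K4me3 within 10 kb the H3K4me3 medians were 11 and 12, and the H3K27me3 medians 7 and 4. For all 11653 shared autosomal sites the H3K4me3 medians were 11 and 10 and the H3K27me3 medians 18 and 13. The 859 weak sites with another summit within 5 kb had H3K27me3 medians of 25 and 19. The 173 solitary sites without H3K4me3 that scored 20 or more in both lines had lower medians than the 184. These were 3 and 3 for H3K27me3, and 5 and 5 for H3K4me3. Spread evenly over the autosomes, the lists would give a mean of 6.89 and 5.11 H3K27me3 summits in such a stretch. For H3K4me3 this mean would be 7.79 and 8.18. Stretches at chromosome ends are cut short, and the differences were not tested.

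Every autosome carried at least 1 site, with a median of 6. Chromosome 9 held the most, 16, followed by chromosome 18 with 15 and chromosomes 6 and 21 with 10 each, while chromosome 24 held 1. Per Mb chromosome 18 led with 0.227, ahead of chromosome 9 with 0.151, chromosome 21 with 0.140 and chromosome 23 with 0.133. The autosomes together had 0.0733 per Mb. Chromosomes 9 and 18, singled out after their values were seen, held 16.8% of the sites (Wilson interval 12.1% to 22.9%) on 4.21% and 2.63% of the autosomal span.

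These leading chromosomes differed in their other marks. Chromosome 18 is dense in both, with 998 H3K27me3 summits in line A and 19.2 H3K4me3 summits per Mb (mean of lines). Its sites made up 1.5 per 100 H3K27me3 summits of line A, against 1.04 over all autosomes. Chromosomes 10 (1.91), 23 (1.79) and 21 (1.57) lay above it in this measure, and chromosome 15 barely so (1.504 against 1.503). Chromosome 9 has 482 H3K27me3 summits in line A and 4.68 H3K4me3 summits per Mb, and its sites made up 3.32 per 100, the highest of the 29 autosomes in line A. The sites of chromosome 18 lay a median of 28.0 kb from H3K4me3 and 16.2 kb from other H3K27me3, and those of chromosome 9 a median of 135 kb and 63.3 kb. Across the 29 autosomes the density of sites had r = 0.52 (Spearman's rho 0.35) with that of H3K27me3 in line A and r = 0.41 (rho 0.25) with that of H3K4me3. Without chromosome 18, left out after seeing the data, r was 0.37 and 0.16 over 28 autosomes. These are descriptions, since chromosomes of 1 genome are not replicates and the sites are part of the H3K27me3 list.

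**Figure D3:**
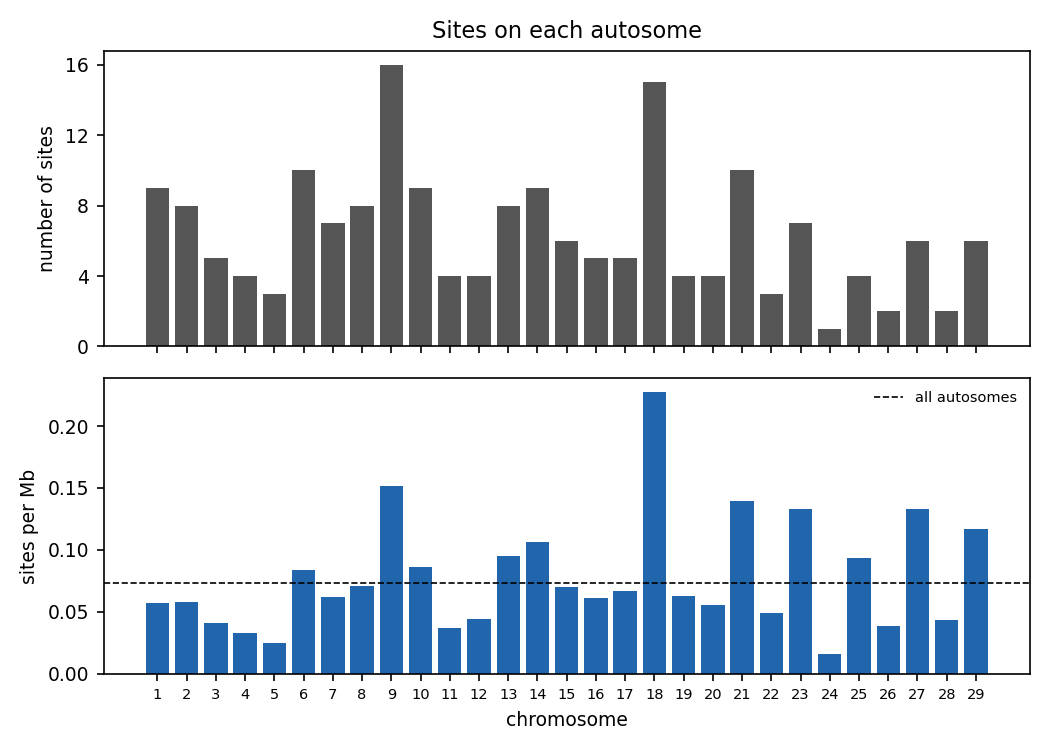
Number of the 184 sites on each autosome (upper panel) and sites per Mb of its span (lower panel), with the dashed line at the 0.0733 per Mb of all autosomes. Chromosomes 9 and 18 hold 16 and 15 sites, and chromosome 18 is the densest with 0.227 per Mb.

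The sites were most frequent toward the ends of the chromosomes. Bovine autosomes are acrocentric, with the centromere near one end. The final 10% of the chromosome span held 50 of the 184 sites (27.2%, Wilson interval 21.3% to 34.0%), against 19.8% and 18.1% of all autosomal H3K27me3 summits of lines A and B and 15.9% and 16.6% of the H3K4me3 summits. The initial 10% held 30 (16.3%, 11.7% to 22.3%), against 11.6% and 11.8% of H3K27me3 and 8.17% and 8.04% of H3K4me3. The fifth such stretch held the fewest, 8 (4.35%). Of the 173 strong solitary sites, 9.25% lay in the final stretch and 12.1% in the initial one. Of the 859 weak sites with another summit within 5 kb, 18.6% lay in the final stretch and 28.6% in the initial one. For the 888 with H3K4me3 within 10 kb these shares were 17.8% and 8.45%. The sites thus had the highest share of these groups in the final stretch but not in the initial one, and no difference was tested.

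Counted in bases, 40 sites lay in the last 5 Mb of their chromosome (21.7%, 16.4% to 28.2%), on 21 chromosomes, against 13.0% and 11.4% of H3K27me3 summits and 10.0% and 10.7% of H3K4me3 summits of lines A and B. In the first 1 Mb lay 12 sites, on 9 chromosomes (6.52%, 3.77% to 11.1%), where 3.84% and 4.05% of all H3K27me3 but 0.851% and 0.759% of all H3K4me3 summits lay. Among them, named after their values were seen, were chromosome 1 at 14222 (scores 2.61 and 3.87 in lines A and B) and at 74189 (12.4 and 5.51), chromosome 29 at 79605 (8.40 and 5.32) and chromosome 9 at 80056 (4.80 and 6.28). The nearest H3K4me3 summits of these 4 were 105 to 565 kb away.

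**Figure D4:**
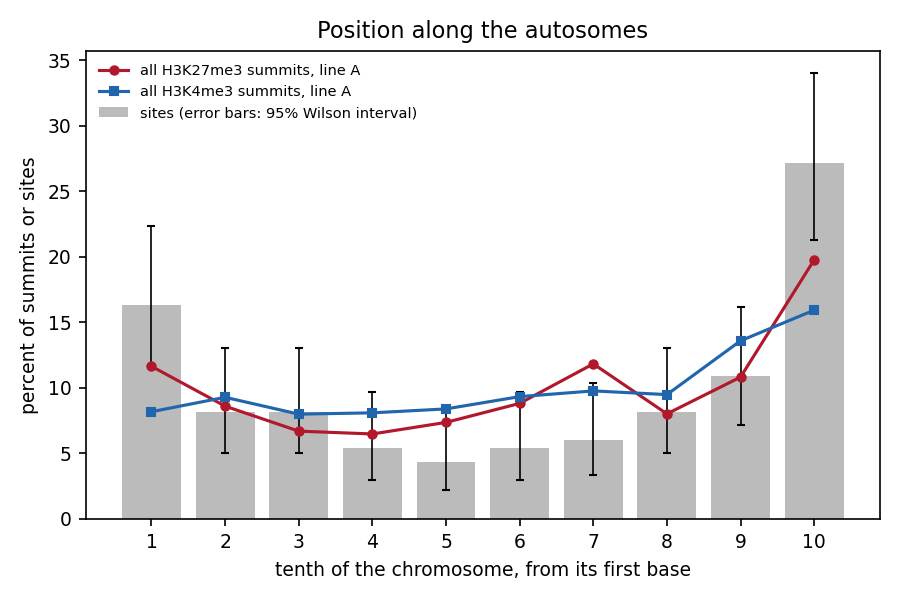
Percent of the 184 sites in 10 equal stretches of their chromosome, counted from its first base (grey bars, with 95% Wilson intervals, which cover counting error only), with all autosomal H3K27me3 (red circles) and H3K4me3 summits (blue squares) of line A. The sites reach 27.2% in the final stretch and 16.3% in the initial one.

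Along the chromosomes the sites were scattered, with a few loose groups. The 155 gaps between neighbouring sites had a median of 5.46 Mb, with quartiles of 0.78 and 14.1 Mb, and the longest was 102 Mb. Only 15 gaps were at most 100 kb, and 28 of the 184 sites had another within that distance. Of the 154 windows of 1 Mb that held a site, 131 held 1, 19 held 2, 1 held 3 and 3 held 4.

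The 3 fullest windows had different surroundings. On chromosome 14 from 32 to 33 Mb the sites at 32312827, 32343798, 32408037 and 32441039 were 4 of 19 H3K27me3 summits of line A and of 17 of line B, among 8 H3K4me3 summits in each line. Their scores were 8.94, 2.10, 11.9 and 7.62 in line A and 18.6, 5.56, 5.18 and 4.71 in line B. On chromosome 21 from 1 to 2 Mb the sites at 1268682, 1592022, 1881670 and 1920227 were 4 of 57 summits of line A and 43 of line B, with no H3K4me3 summit. They scored 5.44, 4.18, 7.31 and 14.4 in line A and 3.78, 2.98, 14.0 and 9 in line B. On chromosome 27 from 5 to 6 Mb the sites at 5337027, 5774532, 5845089 and 5960613 were 4 of 33 and 18 summits, with 4 H3K4me3 summits in each line. They scored 5.27, 12.4, 3.86 and 3.26 in line A and 3.66, 6.03, 4.07 and 8.62 in line B.

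Weak solitary summits without H3K4me3 mostly had no partner in line A, while about as many had one as not in line B. Line A had 1397 of them and line B 650, taken from each list alone. A summit of line B lay within 1 kb of 236 of the 1397 (16.9%, Wilson interval 15% to 18.9%), and a summit of line A within 1 kb of 327 of the 650 (50.3%, 46.5% to 54.1%). Of the 1397, 51 had their nearest summit of line B between 1 and 5 kb away, 396 between 5 and 50 kb and 714 over 50 kb. For line B these numbers were 55, 112 and 156. Of all autosomal H3K27me3 summits, 66.0% of line A and 83.6% of line B had a summit of the other line within 1 kb. Line A has the longer list, with 17664 against 13083 autosomal summits, and the depth behind either is unknown.

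The partners of line A were lost to the rule for having company in their own list at 49 sites and for a score of 20 or more at 4. Seen from line B, 120 partners had another summit of line A within 5 kb, 36 scored 20 or more and 3 had H3K4me3 within 10 kb. A partner can fail in several ways. Sites without a partner scored lower, with a median of 4.60 for line A and 4.41 for line B, compared with 7.21 and 5.61 at the 184. They lay at a median of 59.8 kb and 70.6 kb from H3K4me3, against 77.6 kb and 77.9 kb.

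Among these single-line summits the share with a partner rose with the score. In line A it was 10.7% (17 of 159) at scores of 2 to 3, 8.70% at 3 to 5, 12.6% at 5 to 7, 36.2% at 7 to 10, 52.2% at 10 to 15 and 61.8% (21 of 34) at 15 to 20. In line B it went from 34.9% (30 of 86) through 40.6%, 50%, 60% and 83.0% to 88.6% (31 of 35). In line A the share thus stayed near 10% up to a score of 7. At scores of 10 or more, 57 summits of line A and 13 of line B still had no partner within 1 kb.

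**Figure D5:**
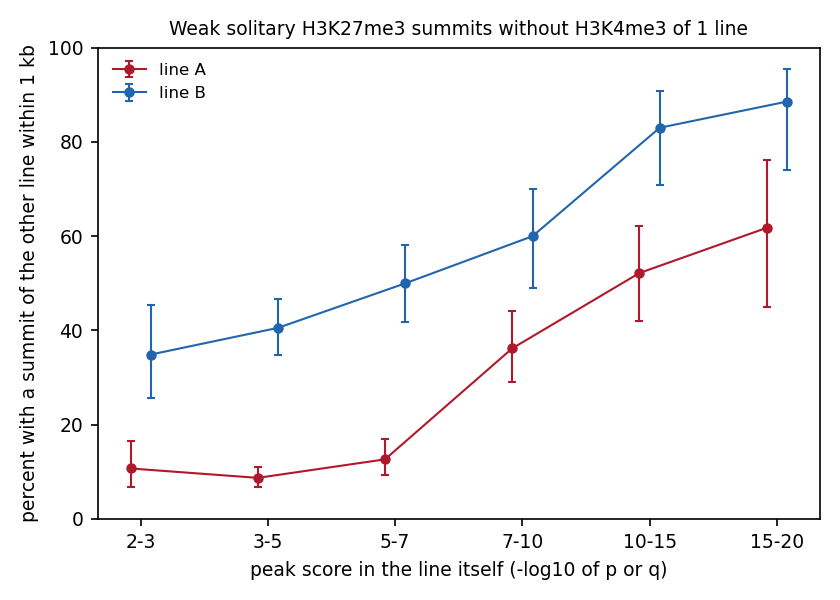
Percent of weak solitary H3K27me3 summits without H3K4me3, taken from line A (red) or line B (blue) alone, that had a summit of the other line within 1 kb, by their own peak score (−log10 scale). Error bars are 95% Wilson intervals for counting error. The share reaches 61.8% in line A and 88.6% in line B at scores of 15 to 20.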

How the data were processed

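H3K27me3 and H3K4me3 ChIP-seq of lines A and B gave 4 lists of summits. Reads were aligned with BWA to UMD3.1 and their peaks found by MACS2, as the submitters' processing notes say. Versions, filters and the use of the inputs are not given in the sources used here. Peak names in the deposited files point to the paired-end mode and to 1 call per library. The deposited score was taken as a −log10 p-value or q-value, because its smallest value in each list was 2.00 to 2.03; nothing used here says which. The other deposited values are positions of 1 base, printed counted from 1.

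Sites were found by the rule given with the results, distances at a limit counting as inside it. H3K4me3 was looked for around both summits of a pair. Groups came from the sample titles. No test was made: each line has 1 library per mark. Wilson intervals reflect counting error alone, and neither sites nor chromosomes are replicates. On simulated lists the rule returned 200 of 200 planted sites and 0 of 1400 that broke a clause. A chromosome's span ran from base 1 to its last summit in any list.

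Named sites are the 5 farthest from H3K27me3, the 5 farthest from H3K4me3, the 5 with the closest summits, the 5 highest and 3 lowest by the lower score, the 5 largest and 3 smallest score ratios, those of the 3 fullest windows, and those at each limit. The sites and lists were chosen with earlier results of these data known. Scripts ran in Python 3.11.15 with scipy 1.17.1, pandas 2.3.3 and numpy 2.4.6, and figures were drawn by matplotlib 3.10.9. Alternatives to each limit are in the closing section. The planned descriptions, of sequence and of genes at the sites, were not run for want of a UMD3.1 reference.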

Additional observations from a re-analysis of the deposited data

Results flagged for a closer look

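The same rule finds sites outside the 29 autosomes, in summits that enter no comparison above and for which no control list was used. On the X chromosome it gave 366 sites, 6.79% of its 5391 H3K27me3 summits of line A, or 2.46 per Mb. Their median scores were 4.80 in line A and 5.32 in line B, their median distance between lines was 186.5 bases, and 11.2% lay within 30 bases. On unplaced sequences of the assembly it gave 121 sites, 5.58% of 2170 summits, each on a sequence of its own. On 117 of these sequences neither line had another H3K27me3 summit. Where a sequence ends within the 5 kb or 10 kb of the rule, no neighbour can lie there. The 5.58% is therefore not on equal terms with the share on autosomes, and the lengths of the sequences were not analysed. The 121 sites had median scores of 10.4 and 10.3 and a median distance between lines of 46 bases.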

How the results depend on the processing

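Of 96 values under 14 settings, 79 stayed within the counting interval of the value reported, within 1 SD between lines for scores, or within 1.5 times for the number of sites, and 17 moved further. The search from line B is among these settings, and its values stayed the same by construction. With scores below 10 the sites numbered 116, the median distance between lines was 99 bases and the mean of the median scores 4.99. The nearest other H3K27me3 summit lay at a median of 75.5 kb when none was allowed within 10 kb. Allowing others beyond 2 kb gave 314 sites, 7.88 kb to other H3K27me3 and a median gap of 1.54 Mb. The median distance to H3K4me3 was 101 kb with a limit of 20 kb and 59.2 kb with 5 kb. Sites over 30 bases apart, a setting added after seeing the data, lay a median of 132.5 bases apart. A changed distance limit moves the distance it bounds by construction. Likewise a lower score limit cannot raise the number of sites or their median scores. A looser limit, or a single line taken alone, can only add sites. The cause of the other moves was not tested. With either line alone the sites numbered 650 to 1397, the median score was 4.77 to 4.86, the median gap 0.61 to 1.18 Mb, and chromosomes 9 and 18 held 11.6% to 13.5% of the sites. Each site pairs a summit of line A with one of line B, and ratios, shifts and correlations of these pairs are descriptions. No paired test was made, since each line has 1 library per mark. Unknown depth limits how many weak summits each list could hold.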
